A study of Mus musculus with 4 samples.

Results

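The descending limb of Henle's loop was 1 of 23 clusters of nuclei in a single nucleus RNA sequencing (snRNA-seq) experiment on mouse kidney cortex, where it was labelled LH-DL and held 158 of 34146 nuclei. The cluster was chosen by measured values: it had the second highest mean over 4 mice for *Nphs1*, which encodes nephrin of the podocyte slit diaphragm, after the podocytes themselves. The study compared 4 male mice of mixed strain, 1 in each group, all fed doxycycline. The 2 control mice carried the TRE-hKLF6 transgene alone, which is silent without an activator. The 2 hKLF6OE mice carried CAG-rtTA and TRE-hKLF6. The CAG promoter, active in most cell types, drives the activator rtTA, which with doxycycline switched on human *KLF6* from TRE-hKLF6. In each genotype 1 mouse, called uninjured here, is labelled with no treatment (the methods name the solvent DMSO for mice without AAI), and 1 received a single injection of aristolochic acid I (AAI), a plant toxin that damages DNA and injures the proximal tubule, a day before the kidney was taken. With 1 mouse per group, no difference below has a replicate check and no test between conditions was made.

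The descending thin limb carries filtrate from the straight proximal tubule down into the medulla. Its cells hold the water channel aquaporin 1 and, in some segments, the urea transporter encoded by *Slc14a2*, and they live in a salty surrounding that calls for osmolyte transport. Parietal epithelial cells line Bowman's capsule of the glomerulus, and urothelial cells line the renal pelvis. Podocytes wrap the glomerular capillaries.

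A value here is the mean over the nuclei of 1 cluster and 1 mouse of a gene's molecules (UMIs), after each nucleus was scaled to 10000. Values are given in the order control, control with AAI, hKLF6OE and hKLF6OE with AAI. The recurrent low values of each column gave back the number of nuclei behind it. The cluster held 25, 33, 70 and 30 nuclei in the 4 mice, with median totals of 1121, 1584, 1285 and 1774 UMIs per nucleus. A value of 1 rested on about 2.63, 4.71, 8.58 and 5.19 effective UMIs, and 60.6%, 52.5%, 42.5% and 52.6% of gene rows were at 0. The control column was thus the least certain and the hKLF6OE column the most. Intervals below are exact Poisson 95% intervals on effective UMIs. They cover counting error only, and are too narrow where the molecules of a gene sit in few nuclei.

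Nuclei of the cluster made up 0.244% of the control mouse (exact binomial 95% interval 0.158 to 0.36%), 0.431% of the control mouse with AAI (0.297 to 0.605%), 0.761% of the hKLF6OE mouse (0.594 to 0.961%) and 0.425% of the hKLF6OE mouse with AAI (0.287 to 0.606%). The share was higher with AAI in the control genotype and lower with AAI in hKLF6OE, and the intervals of the 2 mice overlapped in both genotypes. The hKLF6OE share lay above the control share with no overlap of intervals. These intervals cover the counting of nuclei within 1 mouse and not the variation between mice. Podocytes made up 1.03%, 1.78%, 0.848% and 2.18% of the same mice.

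*Nphs1*, the gene of the choice rule, was not evenly present. Its values in the cluster were 0.763, 2.67, 0 and 3.00, against 19.6, 16.6, 17.1 and 20.2 in podocytes. Both mice with AAI were high, the control mouse was low, and the hKLF6OE mouse had no molecule, which allows a value of up to 0.35 (3 effective UMIs). In that mouse alone the second cluster for *Nphs1* was InjuredPT-A, at 0.253. *Tshz2*, a zinc finger gene given as the marker of the descending limb, was even, at 16.6, 15.01, 13.6 and 17.6. It was second in mean to the mesangial cells, which had 18.1, and above endothelial cells of EC-2 with 12.2 and podocytes with 8.18.

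**Figure D1:**
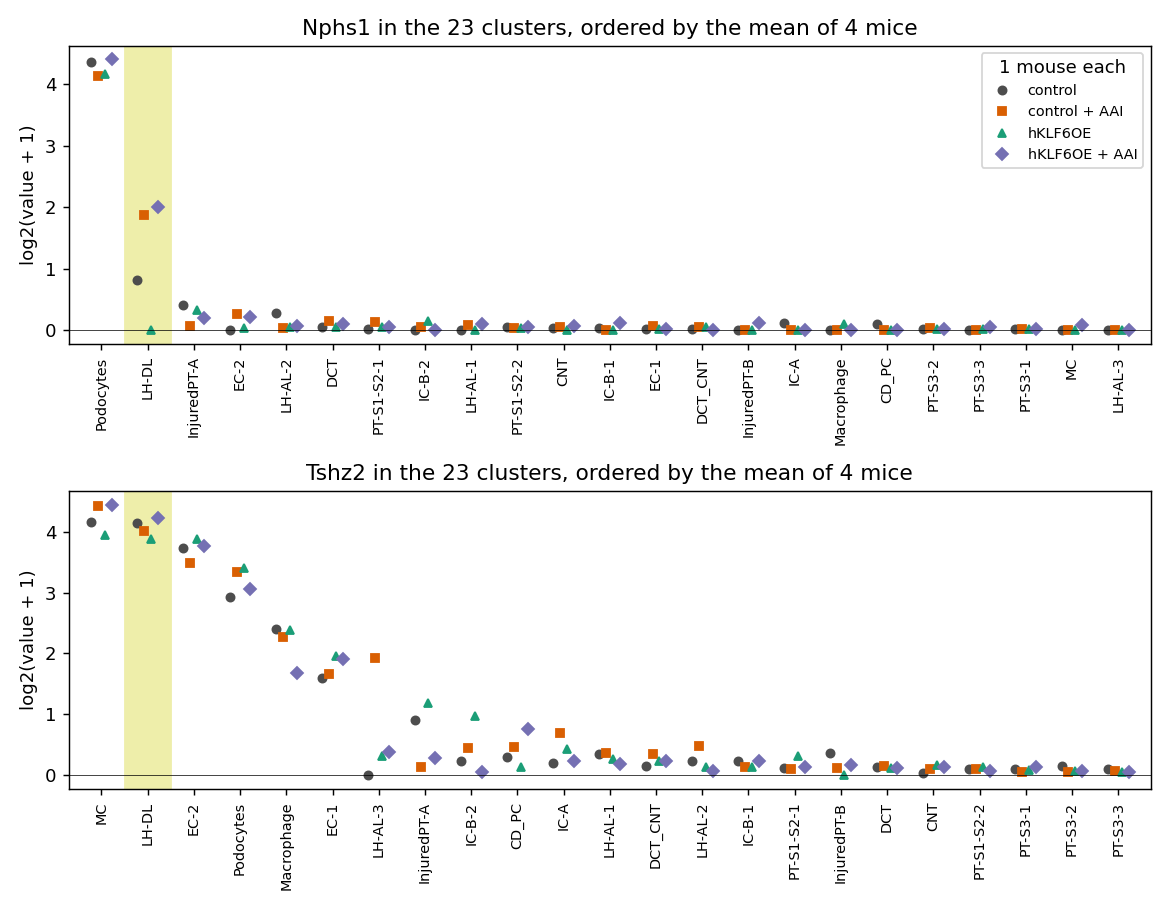
Values of *Nphs1* and *Tshz2* as log2(value + 1) in the 23 clusters, ordered by mean, with 1 point per mouse and the descending limb cluster shaded. *Nphs1* was 2.67 and 3.00 in the cluster in the mice with AAI and 0 in the hKLF6OE mouse, while *Tshz2* lay between 13.6 and 17.6.

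The genes that set the cluster apart from the other 22 were, in the order of their smallest lead over the 4 mice, *Sorcs3*, *Fst*, *Fam19a1*, *Tbc1d4*, *Spon1*, *Ncam1*, *Cdh13*, *Slc6a6*, *Eya1*, *Akap12*, *Cp*, *Robo1* and *Prtg*. These were the 13 of 1174 genes with a value of at least 1 in all 4 mice (1.11%) whose log2(value + 1) was at least 0.5 above the highest other cluster of the same mouse in every mouse. The clusters were made from these genes, so this is a description with no test. *Prtg* was just inside the threshold, at 0.55. Of the genes with a value of at least 1 in all 4 mice, *Stxbp6* was just outside, at 0.455. *Adam33*, a metalloprotease gene, had a lead of 0.49. It was under a value of 1 in the control mouse with AAI, at 0.646, and in the hKLF6OE mouse, at 0.532. *Tnc* and *Proser2* had leads of 0.82 and 0.71 but fell under a value of 1 in 1 mouse each.

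*Sorcs3*, which encodes a sorting receptor, had the largest smallest lead of the 13. Its values were 6.22, 4.6, 7.64 and 7.06, while the next cluster by mean, InjuredPT-B, had 0.0672. It is also on the thin ascending limb list, of which it and *Cldn4* were the 2 of 5 genes highest in this cluster, and which summed to 6.58, 5.28, 8.51 and 7.06. *Sorcs3* lies on chromosome 19 from 48206025 to 48805505, forward strand, in the mouse build GRCm38. *Fst*, which encodes the activin-binding protein follistatin, had 3.98, 9.13, 6.04 and 5.46 against 0.227 in InjuredPT-A. It lies on chromosome 13 from 114452290 to 114458951, reverse strand. For both genes all 4 mice were above every other cluster, by at least 1.64 on the log2(value + 1) scale.

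*Slc6a6*, the taurine transporter, which takes up an organic osmolyte, had 22.3, 16.9, 12.6 and 22.9 against 8.41 in PT-S3-2. *Tbc1d4*, a regulator of membrane traffic to the cell surface, had 9.06, 10.8, 6.43 and 10.4 against 2.84 in the distal convoluted tubule. *Cp*, which encodes the copper protein ceruloplasmin, had 7.44, 11.6, 4.87 and 12.5 against 3.22 in mesangial cells. The hKLF6OE mouse was the lowest of the 4 for all 3 genes.

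*Ncam1*, the neural cell adhesion molecule, had 8.61, 6.70, 2.36 and 10.97 against 1.30 in podocytes, and *Akap12*, a scaffold of protein kinase A, had 5.69, 6.11, 1.80 and 10.1 against 0.499 in mesangial cells. For both, the hKLF6OE mouse was low and the interval of its value did not overlap those of the other 3. *Cdh13*, a cadherin anchored without a transmembrane part, went the other way, with 5.82, 6.76, 7.74 and 2.77, where the hKLF6OE mouse with AAI was lowest. *Robo1*, a receptor for Slit guidance cues, had 4.66, 7.07, 3.08 and 6.68, with both mice with AAI above both without. *Eya1*, a developmental transcription cofactor, had 1.87, 2.08, 1.03 and 1.31. *Spon1*, which encodes a matrix protein, was nearly even, with 3.90, 3.39, 3.11 and 3.55 against 0.934 in mesangial cells. *Fam19a1*, a gene for a secreted protein of the nervous system, varied widely, with 11.8, 5.56, 3.66 and 12.7.

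**Figure D2:**
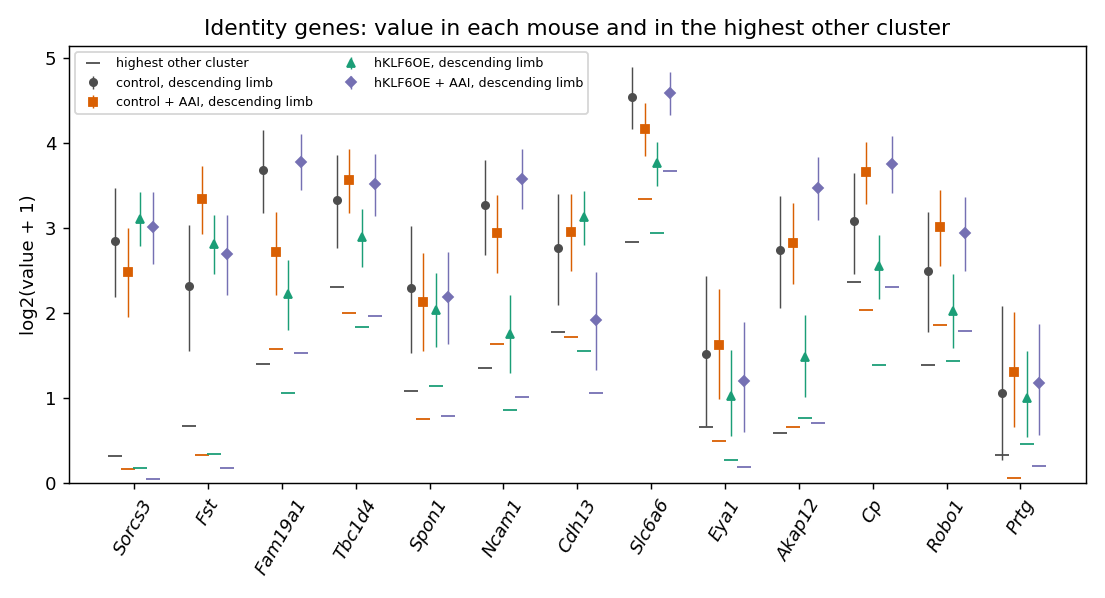
The 13 identity genes as log2(value + 1) in each mouse (points, with 95% Poisson intervals of counting error) and the level of the highest other cluster of that mouse (dashes of the same colour). Every point lies at least 0.5 above its dash, and *Ncam1* and *Akap12* are lowest in the hKLF6OE mouse, at 2.36 and 1.80.

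The label was checked against marker lists. How many of all genes are highest or second in this cluster was not counted, so the counts below are descriptions. Of 17 descending thin limb genes, 10 were higher in mean in this cluster than in any other. They include *Aqp1*, *Slc14a2*, *Bst1*, *Fst*, *Corin*, *Smoc2*, *Cryab*, *Cldn4* and *Akr1b3*. Only 8 of the 17 had a mean of at least 1, and *Cldn4* was low, at 0, 0.182, 0.493 and 0. The summed value of the list was 31.3, 40.1, 44.5 and 35.0, the highest of the 23 clusters in mean. *Tshz2*, the given marker of the label, is on the list and made up a large part of the sum. Without it the sums were 14.7, 25.1, 30.8 and 17.4, still the highest of the 23, with PT-S3-2 next at a mean of 10.2. *Aqp1* was steady, at 5.21, 5.83, 6.30 and 4.76, against 3.07 in InjuredPT-A. *Bst1*, which encodes a surface enzyme of nucleotide metabolism, had 1.08, 2.49, 2.05 and 0.573.

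Other thin limb genes were found mainly in 1 mouse. *Corin*, which encodes the protease that activates atrial natriuretic peptide, had 0, 0.325, 4.85 and 0.114, so that nearly all of it was in the hKLF6OE mouse. *Slc14a2* had 0, 0.869, 1.97 and 0. *Smoc2* was at 0 in 3 mice and at 0.571 in the hKLF6OE mouse. Of the urothelium list, 4 of 5 genes were highest in this cluster, and again mainly in that mouse. None of the 5 had a mean of at least 1. *Upk3a*, which encodes a plaque protein of the bladder surface, had 0, 0, 1.67 and 0, and *Upk1b* had 0.593, 0, 1.41 and 0.743. All 5 of the *Upk1b* UMIs of the hKLF6OE mouse with AAI were in a single nucleus. *Psca* was at 0.569 in the hKLF6OE mouse and at 0 in the other 3.

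The parietal epithelium list summed to values of a size like those of the thin limb list, but much of its sum came from genes also high elsewhere. Of 9 listed genes, 4 were highest in this cluster, namely *Aldh1a2*, *Ncam1*, *Akap12* and *Pax8*, and the summed value of 41.5, 45.7, 31.6 and 49.4 was the highest of the 23 clusters in mean. *Pax8* and *Pax2*, transcription factors of the nephron, had 5.85, 5.82, 7.07 and 5.81, and 7.64, 9.64, 12.9 and 6.05. *Cldn1*, the claudin that marks parietal cells, had no molecule in 3 mice and 0.672 in the hKLF6OE mouse with AAI, where it came from 4 UMIs in 4 nuclei. *Vcam1* was at 0, 0.382, 0 and 0.127.

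None of the 17 podocyte genes was highest in the cluster and 10 were second after podocytes. *Nphs1* is on this list and its rank was set by the choice rule, and without it 9 of 16 genes were second. The summed value of the 17 was 81.7, 170, 23.5 and 138, against 705 to 1101 in podocytes. Relative to podocytes of the same mouse, the median gene of the list stood at 7.87%, 16.1%, 3.01% and 16.3%, and at 9.72%, 17.1%, 3.03% and 16.4% without *Nphs1*. *Wt1*, a transcription factor of podocytes that parietal cells can also carry, had 7.05, 3.87, 0.657 and 6.01 against 12.1 in podocytes. The hKLF6OE mouse thus had the lowest podocyte and parietal sums, and the most of *Corin*, *Slc14a2* and the urothelium list.

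The proximal tubule list summed to 159, 103, 165 and 78.5, more than the thin limb or parietal list, and ranked 13 of 23. *Kap*, an abundant gene of the proximal tubule, supplied 77.8, 58.4, 106 and 40.8 of it. *Slc12a1*, the defining cotransporter of the thick ascending limb, had 2.42, 7.06, 8.15 and 1.76 against 206 in LH-AL-1. The principal cell, intercalated cell and immune lists summed to at most 2.2, 1.5 and 2.0. The endothelial list summed to 8.24, 11.35, 5.16 and 13.8 and ranked 5 of 23. *Meis2*, a homeobox gene on that list, supplied 7.42, 8.70, 2.57 and 12.8 of it, while *Cdh5* and *Egfl7*, 2 of its 10 genes, were at 0 in all 4 mice. Of the 9 immune genes, *C1qa*, *Cd3e*, *Adgre1* and *Tyrobp* were at 0 in all 4. Across 5069 genes the cluster's mean profile was most like that of the endothelial cluster EC-1 (Pearson r 0.754), podocytes (0.739) and the collecting duct principal cells (0.737). These correlations run across genes, which are not independent, and the clusters share libraries. The data went with the label only in part, and the cluster is called here by its label LH-DL or as the descending limb cluster.

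**Figure D3:**
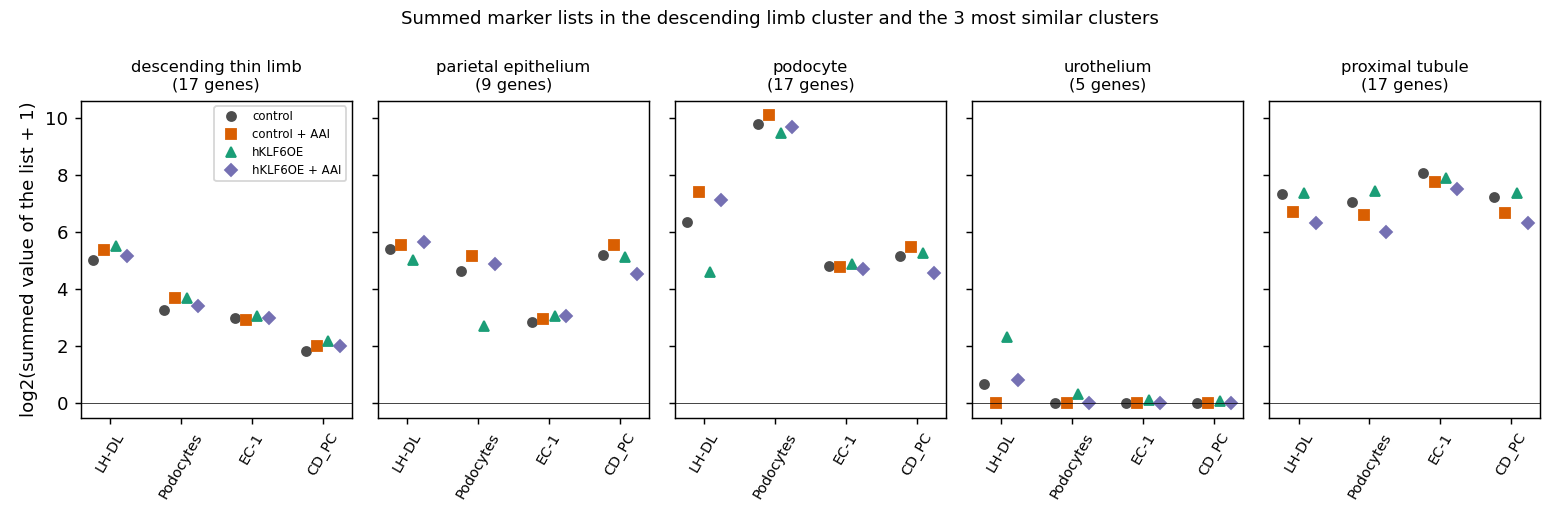
Summed value of 5 marker lists, as log2(sum + 1), in the descending limb cluster and in the 3 clusters most like it, with 1 point per mouse. The podocyte list spans 23.5 to 170 in the cluster, lowest in the hKLF6OE mouse, while the thin limb list spans 31.3 to 44.5.

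Where the podocyte molecules sat could be read for low genes. A value that only 1 combination of nuclei could give was traced back to those nuclei, and this was so for 88.1%, 76.3%, 53.02% and 74.7% of the genes above 0 in the 4 mice. The podocyte genes used were 45 genes with a mean at least 8 times higher in podocytes than in any of the other 21 clusters, a set made after the values were seen, without those of this cluster. In the control mouse with AAI, 4 of 33 nuclei held 5 or more recovered podocyte UMIs each, and together 43 of 57. In the hKLF6OE mouse with AAI, 4 of 30 nuclei held 37 of 47, and their median total was 4610 UMIs against 1712 for the rest. A fixed cut of 5 UMIs is reached more easily by nuclei with high totals, so this gap is partly built in. In the control mouse, 5 of 25 nuclei held 68 of 99. In the hKLF6OE mouse no nucleus reached 5, and 38 UMIs were spread over 27 of 70 nuclei, with at most 4 in 1 nucleus.

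Most of the traced podocyte molecules of 3 mice therefore lay in few nuclei. The traced UMIs came to 48.6%, 6.33%, 26.2% and 5.6% of the effective UMIs of the 45 genes, so in the mice with AAI nearly all podocyte molecules, those of *Magi2* included, could not be placed. *Nphs1* of the control mouse came from 5 UMIs in 2 nuclei, 4 of them in 1 nucleus. Recovered UMIs of the thin limb list were found in 11, 5, 2 and 11 nuclei, and the podocyte-rich nuclei held at least 1 of them in 3 of 5, 0 of 4 and 2 of 4 cases in the 3 mice that had such nuclei. No podocyte-rich nucleus held 2 or more of the thin limb UMIs, which 4, 5 and 4 nuclei of these mice did. Nuclei of both kinds were few, and only 7, 6 and 6 thin limb genes were traced, so this absence cannot separate them. The study's methods describe no doublet removal for the RNA libraries, and the part of doublets in these nuclei was not tested.

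**Figure D4:**
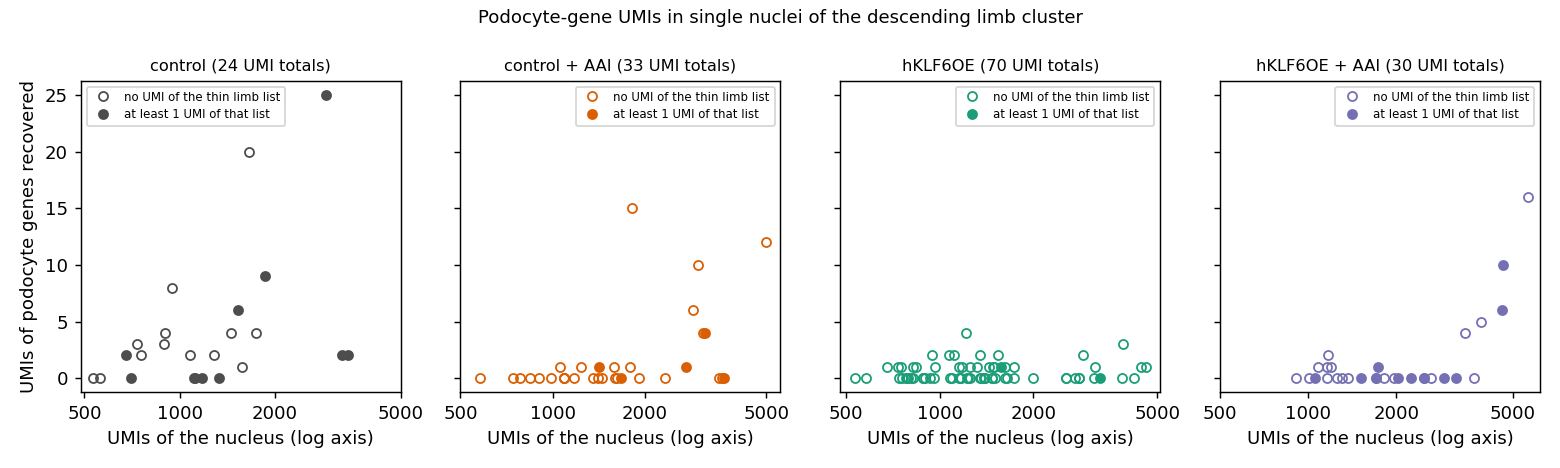
Each point is 1 nucleus (or UMI total, since 2 nuclei of the control mouse shared a total) of the descending limb cluster, by its total UMIs on a log axis and its recovered UMIs of the 45 podocyte genes. Filled points hold at least 1 recovered UMI of the thin limb list, and the points at 5 or more are 5, 4, 0 and 4 in number.

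With AAI, 5 of 13 podocyte genes that passed, *Magi2* among them, and 3 of 4 immediate early genes, *Egr1* among them, were higher in the cluster in both genotypes. The 5 include *Nphs1*, the gene of the choice rule, and without it 4 of 12 podocyte genes were higher. Of the genes that passed, 7 of 11 mitochondrially encoded genes and 4 of 13 proximal tubule genes were lower in both. None of 7 thin limb genes moved the same way in both. In the control genotype, 3353 genes reached a value of 1 in at least 1 of the 2 mice. Of these, 787 (23.5%) were higher by at least 0.5 on the log2(value + 1) scale and 885 (26.4%) lower, with a median difference of -0.02. In hKLF6OE, 768 of 3078 genes (25.0%) were higher with AAI and 593 (19.3%) lower, with a median of 0.09. Shares of this size have to be read against the depth. The counting intervals of the 2 mice did not overlap for only 15 of the 787 and 28 of the 885 genes in the control genotype, and for 160 of the 768 and 96 of the 593 in hKLF6OE. These 2 contrasts share no mouse, so genes that moved the same way in both are given in more detail.

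With AAI, 149 of 2402 genes (6.2%) were higher in both genotypes and 107 (4.45%) lower. The 149 were 27.5% of the genes higher in the control genotype and 24.9% of those higher in hKLF6OE. Over the same 2402 genes, 599 were higher in hKLF6OE and 542 in the control genotype. The overlap of the higher genes was thus only slightly larger than the share over these genes. Of the genes lower in the control genotype, 107 of 487 were lower in both, against 391 of 2402 lower in hKLF6OE. Of those lower in hKLF6OE it was 107 of 391, against 487 of 2402 lower in the control genotype. The overlap of the lower genes thus exceeded the share over these genes by more than that of the higher genes did. The number of higher genes therefore does not by itself show a shared response. For the lower genes a shared response was not tested. Of the 149, the 10 genes with the largest smaller difference were *Robo2*, *Magi2*, *Ptpro*, *Dpp4*, *Prkd1*, *Astn2*, *Myo1e*, *Eya4*, *Enpep* and *Antxr1*. Of these, 7 were highest in podocytes of all 23 clusters, and *Antxr1* and *Prkd1* were highest in the distal convoluted tubule and *Robo2* in LH-AL-3. Over all 149 genes, 32 (21.5%) were at least 2 times higher in podocytes than in the cluster, against 5.66% of all genes compared. With the podocyte-high genes left out, 117 genes were higher in both genotypes and 105 lower.

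Ranked by the smaller of the 2 genotypes' differences, the largest rises were *Robo2*, *Magi2* and *Ptpro* of the podocyte list. In the control genotype alone *Prkd1*, which is not on that list, had a larger difference, 2.20. *Magi2*, a scaffold protein of the slit diaphragm, had 32.6, 112, 2.76 and 78.9. *Ptpro*, a receptor phosphatase of the podocyte surface, had 1.62, 6.84, 0.0987 and 3.25, and *Robo2*, a guidance receptor that podocytes use, 1.24, 6.68, 0.935 and 7.38. Both mice with AAI were above both without for each gene. Of 13 podocyte list genes that passed in both genotypes, 5 were higher in both and none lower, with list medians of 0.35 and 1.48. The 5 include *Nphs1*, the gene of the choice rule. Without it 4 of 12 were higher (medians 0.35 and 1.45), and without *Magi2* as well 3 of 11 (0.22 and 1.42). *Wt1* and *Clic5*, a gene of podocyte foot processes, were not among the genes higher in both. They had -0.73 and -0.72 in the control genotype and 2.08 and 1.48 in hKLF6OE. In podocytes themselves the AAI differences of *Magi2* were only 0.38 and 0.23, and those of *Ptpro* 0.34 and -0.14. The podocyte list's summed value was 2.08 and 5.89 times higher with AAI in the cluster, the highest ratio of the 16 clusters outside the proximal tubule in each genotype. *Magi2* carried much of this. Without it and without *Nphs1*, a choice made after seeing the data, the ratios were 1.14, the fourth highest of the 16, and 2.72, still the highest. Nuclei with 5 or more recovered podocyte UMIs were 5 of 25, 4 of 33, 0 of 70 and 4 of 30 in the 4 mice. The recovered share was 48.6%, 6.33%, 26.2% and 5.6%, so these counts cannot be compared between mice. More podocyte molecules per nucleus and more nuclei that carry them cannot be told apart from the cluster means alone.

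Other genes higher in both genotypes were not podocyte genes. *Antxr1*, a collagen-binding receptor, had 0.275, 1.78, 0.426 and 2.15 against 0.00902 in podocytes. *Cdh6*, a cadherin of the developing tubule, had 3.14, 6.79, 2.53 and 7.55, and *Gclc*, the rate-limiting enzyme of glutathione synthesis, 1.76, 4.64, 2.45 and 5.32. For these 3 genes both mice with AAI lay above both without, and none was called higher in both genotypes in any of the other 22 clusters. *Chd9*, a chromatin remodeler named here after its values were seen, had 6.27, 16.7, 5.28 and 10.4 and was, with *Magi2*, *Ptpro*, *Prkd1* and *Robo2*, 1 of 5 genes whose counting intervals were apart in both genotypes.

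Genes of the immediate early response, transcription factors induced within minutes by stress, were higher with AAI. Of 16 listed, 4 passed in both genotypes and 3 were called higher in both, with list medians of 0.75 and 0.78. *Egr1* had 0.371, 2.02, 0.0437 and 1.16, *Jun* had 1.02, 2.39, 0.329 and 1.27, and *Junb* had 0, 2.71, 0.317 and 1.56. Mouse *Klf6*, the fourth, had 1.11, 1.76, 0.939 and 1.74, a difference of 0.39 in the control genotype and 0.50 in hKLF6OE. The pattern was not particular to the cluster, as the summed list was higher with AAI in all 22 other clusters in both genotypes. *Egr1* was called higher in both genotypes in 18 of them, *Junb* in 8, and *Jun* and *Klf6* in 4 each.

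*Polr2a*, which encodes the largest subunit of RNA polymerase II, had 2.20, 4.92, 1.14 and 4.28. The differences of 0.89 and 1.30 put both mice with AAI above both without. It was the only 1 of 13 polymerase subunit genes to pass the filter, so nothing can be said of the complex. The value of the cluster was second of the 23 in mean, after 12.6 in InjuredPT-A, and *Polr2a* was called higher in both genotypes in 4 of the 22 other clusters.

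Of 28 targets of p53, the transcription factor that answers DNA damage, 8 passed in the control genotype and 5 were higher and none lower (median 0.62), and in hKLF6OE 4 passed, 2 higher and 1 lower (median 0.24). Over all genes 23.5% were higher and 26.4% lower in the control genotype, and 25.0% and 19.3% in hKLF6OE. Only *Mdm2*, the ligase that degrades p53, was higher in both, with 1.23, 2.20, 0.593 and 1.46. The summed p53 list was 1.81 and 1.27 times higher with AAI in the cluster, against medians of 2.08 and 2.27 over the other 22 clusters. The hKLF6OE ratio was under the lowest of the other clusters, 1.66. In the hKLF6OE mouse with AAI, 20 of the 51 traced UMIs of the list lay in 1 nucleus and 33 in 3 nuclei.

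**Figure D5:**
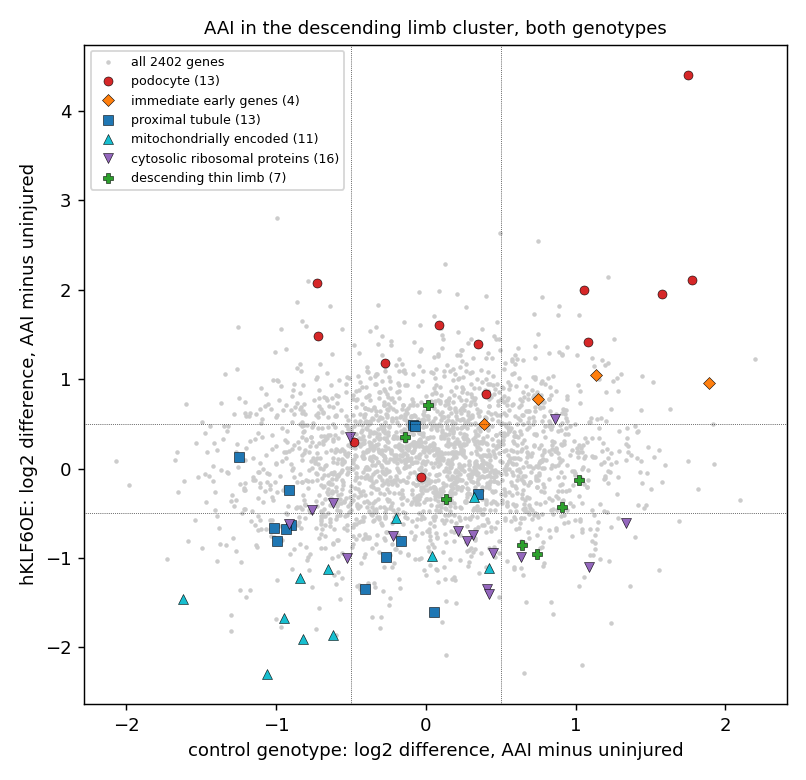
Difference of log2(value + 1) with AAI in the control genotype (x axis) and in hKLF6OE (y axis) for the 2402 genes that passed in both, with 6 lists marked and dotted lines at -0.5 and 0.5. Past both lines lie 5 of 13 podocyte and 3 of 4 immediate early genes at the upper right, and 7 of 11 mitochondrially encoded and 4 of 13 proximal tubule genes at the lower left. The 5 podocyte genes include *Nphs1*, the gene of the choice rule. *Wt1*, at -0.73 and 2.08, is a podocyte gene at the upper left.

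Genes lower with AAI in both genotypes were led by *mt-Nd4*, *Inmt*, *Ttc36*, *Akr1c21*, *Ass1*, *Ndrg1*, *mt-Atp6*, *Mfsd1*, *Immp2l* and *Rhobtb1*. Of the 107 genes, 49 (45.8%) were at least 2 times higher in a proximal tubule or injured proximal tubule cluster, against 19.4% of all genes compared. With genes high in the proximal tubule and the mitochondrially encoded genes left out, 58 genes were lower in both genotypes and 129 higher. *Ass1*, argininosuccinate synthase of the urea cycle, had 2.73, 0.624, 2.89 and 0.434. *Ndrg1*, a gene induced by low oxygen, had 10.2, 3.96, 7.64 and 2.36. *Slc34a1*, the proximal tubule phosphate transporter, had 17.5, 8.29, 14.3 and 7.69 against 64.9 in PT-S1-S2-1. Both mice with AAI were below both without for each gene.

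The 10 leading falls differed in how far they were shared. *Ndrg1* was called lower in both genotypes in all 22 other clusters, *Inmt*, an N-methyltransferase gene, in 21, *mt-Nd4* and *mt-Atp6* in 20 each, and *Ass1* in 18. *Rhobtb1* was called in 12, *Akr1c21* and *Ttc36* in 11 each and *Immp2l* in 10, while *Mfsd1* was called in none. The proximal tubule list was lower with AAI in all 16 clusters outside the proximal tubule in both genotypes, by ratios of 0.651 and 0.475 in this cluster against medians of 0.685 and 0.488. Its part in the values of this cluster was not tested.

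Of 11 mitochondrially encoded genes that passed, 7 were lower in both genotypes and none higher, with medians of -0.65 and -1.22. *mt-Nd4*, a subunit of complex I, had 19.5, 5.66, 20.6 and 6.83, and *mt-Co3*, a subunit of complex IV, had 69.6, 38.9, 99.9 and 25.9. The list's sum was lower with AAI in 15 and 16 of the same 16 clusters. Of the 8 genes lower in both genotypes with counting intervals apart in both, 6 were mitochondrially encoded, and the other 2 were *Ndrg1* and *Slc34a1*.

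The thin limb genes did not move together. Of 7 that passed in both genotypes, none was higher or lower in both. In the control genotype 4 of 7 were higher with AAI (median 0.64), and in hKLF6OE 1 of 10 was higher and 4 lower (median -0.39). *Fst* had differences of 1.03 and -0.12, *Bst1* of 0.74 and -0.96, and *Cryab*, a small heat shock protein gene, of 0.64 and -0.86. Of the parietal list, 3 of 5 were higher and 1 lower with AAI in hKLF6OE (median 1.01) and none was called in the control genotype (median 0.09), with *Ncam1* at -0.32 in the control genotype and 1.83 in hKLF6OE. Osmolyte and water handling genes had none called in both, with medians of 0.14 and -0.07. Of 29 cell adhesion and guidance genes, 17 passed in the control genotype, where 6 were higher and 2 lower (median 0.17), and 15 in hKLF6OE, where 5 were higher and 3 lower (median 0.23). The shares over all genes, to be set beside each of these lists, were 23.5% higher and 26.4% lower in the control genotype. In hKLF6OE they were 25.0% and 19.3%. *Nfat5*, the transcription factor of the osmotic response, had 9.95, 11.15, 7.15 and 8.17.

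For the genotype, hKLF6OE was compared with control. Without injury, 664 of 3266 genes (20.3%) were higher and 942 (28.8%) lower, with a median of -0.17, and counting intervals were apart for 23 and 65 of them. With AAI, 586 of 3080 genes (19%) were higher and 573 (18.6%) lower, with a median of -0.01, and intervals were apart for 23 and 22. In both treatments 72 of 2317 genes (3.11%) were higher and 68 (2.93%) lower. Among these 2317 genes, 454 were higher without injury and 394 with AAI, and the 72 were 15.9% and 18.3% of them. Over all genes, 19% were higher with AAI and 20.3% without injury. Of the same 2317, 570 were lower without injury and 362 with AAI, and the 68 were 11.9% and 18.8% of them. Over all genes, 18.6% were lower with AAI and 28.8% without injury. Neither overlap was thus larger than the share over all genes. More genes moved in opposite directions, 100 and 124, than in the same direction. When each contrast was centred on its median, the 72 and 68 became 99 higher and 37 lower, and the 664 and 942 without injury became 892 and 668, so the balance of directions depended on the scaling.

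The 10 largest rises in both treatments were *Alcam*, *Slc12a3*, *Acer2*, *Fmo5*, *Mecom*, *Arhgap32*, *2610035D17Rik*, *Fchsd2*, *Cers5* and *Scamp1*. *Alcam*, an adhesion molecule, had 1.29, 0.218, 6.32 and 2.77, and was the only gene of the 72 whose counting intervals were apart in both treatments. *Mecom*, a zinc finger transcription factor of the distal nephron, had 0.994, 1.23, 9.29 and 4.11 against 46.9 in the distal convoluted tubule. *Slc12a3*, the thiazide-sensitive cotransporter of that segment, had 0.117, 0.926, 2.37 and 7.72 against 167 there. Both hKLF6OE mice lay above both controls for each of the 3. *Acer2* and *Cers5*, enzymes of ceramide metabolism, had 0, 0.0608, 1.62 and 1.78, and 0.122, 0.169, 1.83 and 1.25.

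The 10 largest falls were *Klf3*, *Agbl4*, *Gm37245*, *Ptpro*, *Ppt1*, *Tmem55a*, *Sacm1l*, *Kl*, *Malt1* and *Eya4*. *Klf3*, a transcription factor of the same family as *Klf6*, had 2.44, 2.33, 0.727 and 0.492, and *Kl*, which encodes the FGF23 co-receptor klotho, had 2.96, 2.35, 0.819 and 0.95. *Bicc1*, an RNA-binding protein gene of cystic kidney disease that was named after its values were seen, had 22.7, 23.9, 12.6 and 14.3, and with *Magi2* was 1 of 2 genes of the 68 with counting intervals apart in both treatments. Both hKLF6OE mice were below both controls for *Klf3*, *Kl* and *Bicc1*. For *Magi2* the hKLF6OE mouse with AAI, at 78.9, was above the uninjured control. Of the 10 largest falls, *Gm37245* and *Ppt1* were called lower in both treatments in 1 other cluster each and the other 8 in none.

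Mouse *Klf6* differed little by genotype, with differences of -0.12 without injury and -0.01 with AAI. The human transgene has no row of its own among those used here, so its level in the cluster was not measured. *Spp1*, osteopontin, of the tubular injury list, had 10.7, 17.5, 61.9 and 11.8, and the uninjured hKLF6OE mouse stood far above the other 3. Its interval there did not overlap theirs.

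Genes of translation and respiration were higher in the uninjured hKLF6OE mouse. For the proteins of the cytosolic ribosome, 32 genes passed, with 20 higher and 2 lower than in control (median 0.59, against -0.17 over all genes). For the nuclear genes of oxidative phosphorylation, 39 passed, with 15 higher and 3 lower (median 0.44). The summed lists were 1.83 and 1.51 times higher, and they were higher in all 22 other clusters too, with medians of 1.63 and 1.41. With AAI in hKLF6OE the same lists had medians of -0.70 and -0.55 and were lower in all 22 other clusters. With AAI present, the genotype medians were 0.09 and -0.37. These lists thus moved with the library of the uninjured hKLF6OE mouse as a whole, and a part of the genotype or of the library in this cannot be told apart. Heat shock genes had 3 of 7 higher and 1 lower in the same mouse against control (median 0.38), and 1 higher and 6 lower of 7 with AAI in hKLF6OE (median -0.77), with *Hspa8* at 3.75, 3.02, 6.62 and 1.80. Over all genes 20.3% were higher and 28.8% lower in the first contrast, and 25.0% and 19.3% in the second.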

How the data were processed

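Nuclei from the kidney cortex of 4 mice were sequenced with a droplet method, in 1 technical batch according to the study's methods. The authors counted reads with Cell Ranger against a mouse pre-mRNA reference (mm10), which takes in introns, filtered nuclei on the number of genes detected and on mitochondrial content, and clustered them with Seurat, as the submitters' processing notes and the methods say. The deposited signal values are means over the nuclei of 1 cluster and 1 mouse, scaled to 10000 per nucleus, linear, in 92 columns. The unit was read from the values, since the function used is not stated. Of 19632 gene rows, 23 with date-like names were left out. Cluster names follow the order of the sheets of the study's marker workbook. The table holds no barcodes, so barcodes shared between libraries were not counted.

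From the steps of low values (1 UMI in a nucleus of T UMIs adds 10000 / nT), the number of nuclei was recovered for all 92 columns and UMI totals for the nuclei of this cluster. Effective UMIs are the number of nuclei times the harmonic mean of their totals. UMIs were assigned to nuclei where 1 combination of up to 7, 6, 4 and 6 UMIs gave the value. These steps and the calls were tested on simulated data. Differences were taken as log2(value + 1), called from 0.5 where the larger value was at least 1. Genes named are the 20 with the largest smallest lead, the 10 largest rises and falls with AAI and by genotype in both contrasts, *Nphs1*, *Tshz2*, *Klf6*, *Polr2a* and members of the marker and response lists, with exceptions marked. Members, lists and rules were chosen with earlier results of these data known. Annotation was GENCODE on GRCm38. Python 3.11.15, pandas 2.3.3 and scipy 1.17.1 were used. Alternatives varied the pseudocount, the filter, the threshold and the genes included.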

Additional observations from a re-analysis of the deposited data

Results flagged for a closer look

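Opposite directions in the 2 genotypes or treatments were looked for, and with 1 mouse per group none of these differences was tested. With AAI, 80 genes were called higher in the control genotype and lower in hKLF6OE, and 102 the reverse. The 80 of 542 and 102 of 487 were smaller shares than over all genes compared, 391 and 599 of 2402. These counts therefore do not by themselves show a reversal. For hKLF6OE against control, 100 genes were called higher without AAI and lower with it, and 124 the reverse. The 100 of 454 and 124 of 570 were larger shares than over all genes compared, 362 and 394 of 2317. Both pairs of counts rest on contrasts of the 4 mice that are built from the same values. Lists were also set side by side, and those with at least 5 genes passing in each contrast, medians of opposite sign and at least 1 median 0.5 or more from 0 are given first. The median of the descending thin limb list with AAI was 0.64 in the control genotype and -0.39 in hKLF6OE, and by genotype 0.53 without AAI and -0.40 with it. The cytosolic ribosomal proteins had 0.22 and -0.70 with AAI, and the nuclear oxidative phosphorylation genes 0.12 and -0.55. The distal convoluted and connecting tubule list had 0.62 by genotype without AAI and -0.064 with it. Smaller medians of opposite sign by genotype, without AAI and with it, were 0.43 and -0.42 for the mitochondrially encoded genes, 0.44 and -0.37 for the nuclear oxidative phosphorylation genes and 0.38 and -0.40 for the heat shock genes. The uninjured hKLF6OE mouse, whose column had the most nuclei and no nucleus with 5 or more recovered podocyte UMIs, enters each of these list differences.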

How the results depend on the processing

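Counts of genes called depended on the settings. As reported they were 1672 for AAI in control, 1361 for AAI in hKLF6OE, 1606 for hKLF6OE uninjured, 1159 for hKLF6OE with AAI, 256 for AAI in both genotypes and 140 for hKLF6OE in both treatments, higher and lower together, and the values below keep this order. Without a filter on low values they became 3156, 2293, 2927, 2159, 458 and 287, with the larger value at least 0.5 they were 2848, 2107, 2631, 2010, 403 and 259, and with at least 2 they were 676, 674, 690, 471, 116 and 52. A threshold of 0.2 gave 2681, 2349, 2647, 2266, 743 and 556, and a threshold of 1 gave 519, 371, 435, 208, 31 and 7. A pseudocount of 0.1 gave 1750 for hKLF6OE with AAI, 488 for AAI in both genotypes and 325 for hKLF6OE in both treatments. An alternative chosen after seeing the data, with the larger value on at least 10 effective UMIs, gave 403 for AAI in control, 704 and 465 for hKLF6OE uninjured and with AAI, and 103 and 42 for the 2 combined counts. By its construction it keeps more genes that are higher in the deeper column. Centring each contrast on its median changed the split to 892 higher and 668 lower for hKLF6OE uninjured. Leaving out genes high in the proximal tubule together with the mitochondrially encoded genes, also chosen after seeing the data, left 129 higher and 58 lower for AAI in both genotypes. Leaving out podocyte genes moved none of the 6 counts by over 1.5 times.

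The 13 identity genes became 4 at a threshold of 1, 25 at 0.2, 127 against the mean of the other 22 clusters and 56 with values averaged over the 4 mice. The rule applied to the hKLF6OE mouse alone chose cluster 6 (InjuredPT-A) in place of cluster 21. Of list medians, 15 were at least 0.5 from 0 in size, against 27 with a pseudocount of 0.1 and 4 without the filter. Without the filter 4 medians changed sign, to -0.026, -0.12 and 0.062 for RNA polymerase II subunits (AAI in control, AAI in hKLF6OE, hKLF6OE uninjured) and to 0.080 for claudins (AAI in control). For the changed values the cause was not tested beyond the number of genes each setting admits. No paired analysis was possible because each group is 1 mouse, and for the same reason no mouse could be left out. Depth limits single genes most, since a value of 1 in the control column rests on about 2.63 effective UMIs.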
